A study of Mus musculus with 30 samples.

Results

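Germline-linked genes are genes best known from germ cells, oocytes and the earliest embryo, several of which embryonic stem cells (ESCs) also transcribe. The set described here holds 10 of the 23986 gene symbols measured, namely Dppa2, Dppa4, Dppa3, Dppa5a, Sohlh2, Dazl, Sycp3, Morc1, Tex19.1 and Triml1. They were selected on 2 measured values, a high level in ESCs and a level that persisted in ESC-derived kidney organoids, so their ESC and organoid levels are given below as a description without a test. Not every gene met both. Dppa5a averaged only 5.15 in ESCs, near the background given below. Over the organoid groups Dppa3 averaged 5.01 to 5.36 and Tex19.1 5.11 to 5.55, not clearly above that background. Sycp3 averaged 6.24 in 14-day and 6.31 in 21-day organoids, against 6.19 in embryonic kidneys. All 10 symbols were found in the deposited table.

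Mouse ESCs were differentiated through mesoderm and intermediate mesoderm to renal progenitors, and organoids made from the progenitors were cultured for 8, 14 or 21 days (8D, 14D and 21D). Total RNA of these 7 groups and of E12.5, E13.5 and adult mouse kidneys was hybridised to Affymetrix arrays, 3 arrays per group and 30 in all. The ESCs were of 1 line (1B10), kept on mitotically inactivated mouse embryonic fibroblast feeders, and every cultured group descends from that line. Neither the strain nor the sex of the kidneys, nor whether replicates were separate cultures or animals, is given in the sources used here, so the p-values measure the spread between these arrays, which may be technical.

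Each value is a log2 expression level per gene after normalisation across arrays, so differences are in log2 units, and only differences within a gene are compared. The labels assign 5 arrays to batch 1, namely replicate 1 of the E13.5 kidneys and of each stage from ESC to progenitor, and the other 25 to batch 2. The labels could be checked against markers. The mean of 12 adult kidney markers lay between 10.58 and 10.86 on the adult kidney arrays and at 5.82 or lower elsewhere. The mean of 12 kidney progenitor markers was 9.33 to 9.51 in the embryonic kidneys and 6.48 to 6.99 in the ESC-derived progenitors. The progenitor range overlapped with ESCs (6.03 to 6.71) and intermediate mesoderm (6.54 to 7.20), so this mean did not set the progenitors apart. Single markers moved both ways against ESCs, with log2 fold changes of 3.05 for Eya1 and 2.66 for Osr1. Lhx1 gave -2.90 and Sall1 -1.615.

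Most germline genes are silenced in the embryo proper after implantation, in part by DNA methylation of CpG-rich promoters and in part by a Polycomb complex that reaches E-box and E2F motifs through MGA, MAX and E2F6. Primordial germ cells and naive pluripotent cells erase much of this methylation. ESCs hold transcripts of a subset of germline genes, and somatic tissues such as kidney normally do not. The ESCs here were grown in serum with LIF, and their methylation was not measured.

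RefSeq promoter sequence (GRCm38.p6, from 250 bases before to 50 bases after the annotated start, 300 bases in all) was found for 5 of the 10 genes, Sohlh2, Dazl, Sycp3, Tex19.1 and Triml1. Dppa2, Dppa3, Dppa4, Dppa5a and Morc1 had no entry. The promoters of the meiotic gene Sycp3, the germ cell gene Dazl and the early embryo gene Triml1 are printed because they show how far the set differs in CpG content. Capitals mark every CpG dinucleotide.
Sycp3, chr10:88459337-88459636, plus strand: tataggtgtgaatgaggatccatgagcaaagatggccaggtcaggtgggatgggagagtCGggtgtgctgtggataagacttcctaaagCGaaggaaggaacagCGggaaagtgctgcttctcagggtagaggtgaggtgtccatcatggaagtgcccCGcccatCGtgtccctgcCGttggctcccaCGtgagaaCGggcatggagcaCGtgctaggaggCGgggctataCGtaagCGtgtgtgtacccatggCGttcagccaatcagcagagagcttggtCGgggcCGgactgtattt
Dazl, chr17:50293571-50293870, minus strand: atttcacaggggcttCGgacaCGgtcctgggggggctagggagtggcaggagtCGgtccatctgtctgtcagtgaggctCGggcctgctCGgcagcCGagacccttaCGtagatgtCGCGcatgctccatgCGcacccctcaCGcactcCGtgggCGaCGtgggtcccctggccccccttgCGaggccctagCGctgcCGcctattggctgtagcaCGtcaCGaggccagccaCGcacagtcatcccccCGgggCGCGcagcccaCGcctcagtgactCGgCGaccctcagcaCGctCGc
Triml1, chr8:43141437-43141736, minus strand: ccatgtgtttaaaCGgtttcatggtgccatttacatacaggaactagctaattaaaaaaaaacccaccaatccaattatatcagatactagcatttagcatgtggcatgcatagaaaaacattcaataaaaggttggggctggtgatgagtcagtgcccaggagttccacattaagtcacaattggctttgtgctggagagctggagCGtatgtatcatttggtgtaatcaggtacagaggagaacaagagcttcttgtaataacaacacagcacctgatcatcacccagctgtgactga

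The Dazl window held 28 CpGs, more than 85.8% of the 32851 promoter windows of that length. Sohlh2 held 17, Tex19.1 held 16 and Sycp3 held 15, against a median of 7 over all windows. Triml1 held 2, and 14.1% of all windows held fewer. The ratio of observed to expected CpGs was 0.80 in Dazl, 0.67 in Sycp3, 0.58 in Tex19.1, 0.55 in Sohlh2 and 0.16 in Triml1. The windows were searched on both strands for the E-box CACGTG and the E2F motif GCGGGAA (reverse complement TTCCCGC), which do not overlap. Sycp3 held the E-box at bases 187 to 192 and 208 to 213 and the E2F motif at bases 104 to 110, counted from the 5′ end of the window. The other 4 windows held neither. Of all windows, 7.15% held the E-box, 4.6% the E2F motif and 0.457% both. These matches describe the letters of the windows only.

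The group mean was highest in ESCs for 8 of the 10 genes. Dppa2 was highest in mesoderm and Dppa3 in intermediate mesoderm. ESC means exceeded the mean of the 6 embryonic kidney arrays by 5.16 for Dppa2, 5.03 for Triml1, 4.83 for Sohlh2, 4.82 for Morc1, 3.75 for Dppa4 and 3.28 for Dazl. The same difference was 2.06 for Sycp3, 1.83 for Dppa3, 1.37 for Tex19.1 and 0.72 for Dppa5a. As a measure of background, the 95th percentile of 1394 olfactory and vomeronasal receptor genes lay between 4.997 and 5.64 on the 30 arrays. The embryonic kidney means of all the genes but Sycp3 (6.19) were 4.14 to 5.32, not clearly above that background, so differences from embryonic kidneys may understate the change and their order among genes is not interpreted.

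**Figure D1:**
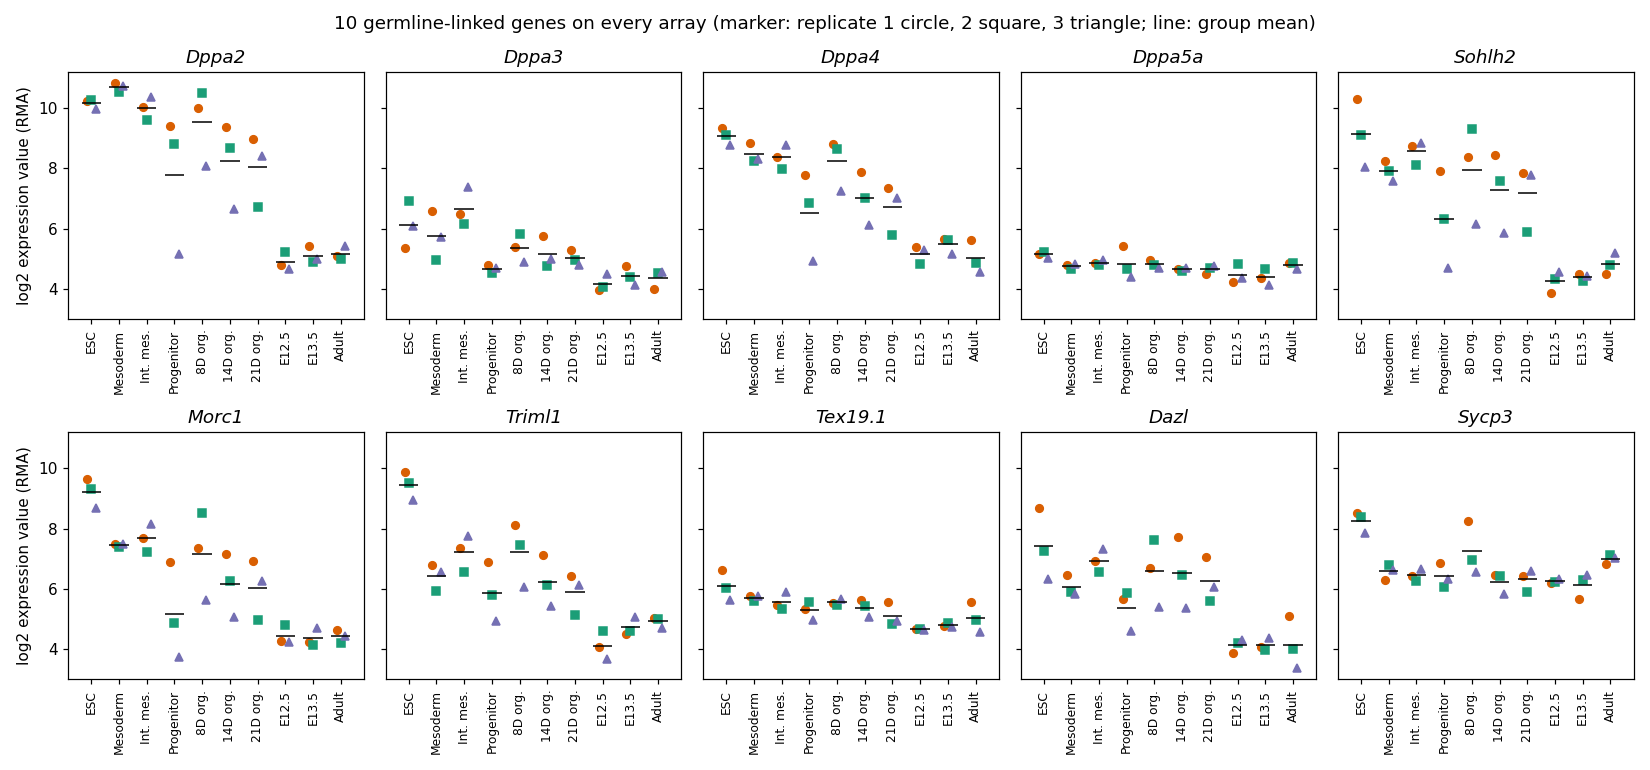
The log2 expression value (vertical axis) of each of the 10 genes on all 30 arrays, by group (horizontal axis), with replicates 1, 2 and 3 as circles, squares and triangles and the group mean as a line. Dppa2, Dppa4, Sohlh2, Morc1, Triml1 and Dazl spread widely among progenitor and organoid replicates, while Dppa5a stayed between 4.14 and 5.43 on all arrays.

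Dppa2 and Dppa4 encode small DNA-binding nuclear proteins that pair with each other and keep early embryonic and germline promoters open. Dppa2 measured 10.25, 10.28 and 9.97 in ESCs, 10.83, 10.55 and 10.72 in mesoderm and 10.03, 9.60 and 10.37 in intermediate mesoderm (replicates 1, 2 and 3, an order kept throughout). In progenitors the 3 arrays read 9.42, 8.81 and 5.16. The third progenitor array thus lay within the embryonic kidney range of 4.67 to 5.43 (median 4.94), and the other progenitor arrays lay more than 3 units above it.
In organoids Dppa2 was 9.995, 10.52 and 8.08 at 8D, 9.38, 8.68 and 6.64 at 14D, and 8.99, 6.71 and 8.43 at 21D. All 9 organoid arrays were above all embryonic kidney arrays, and the 14D and 21D groups overlapped. Adult kidneys gave 5.10, 4.99 and 5.41, inside the embryonic range.

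Dppa4 was lowest on the same progenitor and organoid arrays as Dppa2. It measured 9.33, 9.10 and 8.78 in ESCs, 8.85, 8.25 and 8.32 in mesoderm and 8.39, 7.99 and 8.78 in intermediate mesoderm. Progenitors gave 7.77, 6.85 and 4.91. The third array was again inside the embryonic kidney range (4.82 to 5.66, median 5.34). The organoid values were 8.82, 8.64 and 7.25 at 8D, 7.88, 7.02 and 6.12 at 14D, and 7.35, 5.78 and 7.03 at 21D, and adult kidneys gave 5.64, 4.85 and 4.58.

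Dppa3 (Stella) is a maternal and primordial germ cell factor that protects the oocyte genome from methylation. Its ESC arrays spread over 5.37, 6.91 and 6.10, and mesoderm over 6.58, 4.95 and 5.72. Intermediate mesoderm was highest, with 6.47, 6.16 and 7.37, although it overlapped with ESCs. Progenitors were tight at 4.78, 4.54 and 4.70, below every intermediate mesoderm array. The organoids stayed between 4.77 and 5.81 on 9 arrays and embryonic kidneys between 3.96 and 4.75 (median 4.27).

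Dppa5a encodes an RNA-binding protein with a KH domain. Its ESC values of 5.16, 5.24 and 5.04 were above all mesoderm arrays (4.79, 4.66 and 4.83), but the group means spanned only 4.38 to 5.15. The mouse genome carries near-identical copies of this gene, and the probes may not separate them, so its values are uncertain.

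Sohlh2 is a basic helix-loop-helix transcription factor of early spermatogonia and oocytes. ESC arrays read 10.32, 9.09 and 8.05, mesoderm 8.25, 7.92 and 7.57, and intermediate mesoderm 8.75, 8.12 and 8.83. The ESC spread was wide (SD 1.13, n = 3), and its lowest array overlapped with both later stages. Progenitors gave 7.92, 6.31 and 4.68, the last just above the embryonic kidney range of 3.85 to 4.57 (median 4.39). The organoid values were 8.39, 9.32 and 6.15 at 8D, 8.45, 7.58 and 5.84 at 14D, and 7.86, 5.90 and 7.77 at 21D. No organoid array reached the kidney range.

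Dazl encodes an RNA-binding protein that germ cells need for translation of their transcripts. It measured 8.67, 7.27 and 6.31 in ESCs, 6.46, 5.89 and 5.82 in mesoderm and 6.94, 6.56 and 7.32 in intermediate mesoderm. Progenitors gave 5.65, 5.86 and 4.61, all above the embryonic kidney range of 3.87 to 4.38 (median 4.14). Organoids measured 6.71, 7.64 and 5.40 at 8D, 7.73, 6.45 and 5.36 at 14D and 7.06, 5.62 and 6.08 at 21D. The 3 organoid groups overlapped with each other and with mesoderm. Its most alike gene among the 10 was Sohlh2 (Pearson r 0.98 over the 10 group means).

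Sycp3 is a structural protein of the synaptonemal complex, which holds paired chromosomes together in meiosis. ESC arrays gave 8.50, 8.39 and 7.87 and mesoderm 6.30, 6.80 and 6.64. Mesoderm overlapped with embryonic kidneys (5.65 to 6.45, median 6.27). Intermediate mesoderm measured 6.43, 6.25 and 6.68 and progenitors 6.87, 6.06 and 6.31. The first 8D array stood at 8.24 while the other two were at 6.95 and 6.57. The values were 6.46, 6.42 and 5.82 at 14D and 6.44, 5.91 and 6.59 at 21D, and both groups overlapped with embryonic kidneys. Adult kidneys, at 6.84, 7.12 and 7.02, were above all 6 embryonic kidney arrays.

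Morc1 is an ATPase that silences transposons in male germ cells. It measured 9.63, 9.33 and 8.67 in ESCs, above the 7.50, 7.39 and 7.48 of mesoderm on every array. Intermediate mesoderm gave 7.68, 7.22 and 8.14. Progenitors spread over 6.91, 4.87 and 3.75, from near the mesoderm level to below the embryonic kidney range of 4.15 to 4.801 (median 4.24). The organoid values were 7.34, 8.53 and 5.62 at 8D, 7.15, 6.26 and 5.07 at 14D, and 6.93, 4.95 and 6.25 at 21D.

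Tex19.1 encodes a mammal-specific protein that restrains retrotransposons in germ cells and placenta. Its values were 6.62, 6.03 and 5.64 in ESCs and between 5.35 and 5.91 on the 6 mesoderm and intermediate mesoderm arrays. Progenitors gave 5.33, 5.56 and 4.97, all above the narrow embryonic kidney range of 4.64 to 4.85 (median 4.71). Organoids measured 5.52, 5.48 and 5.66 at 8D, 5.64, 5.43 and 5.05 at 14D and 5.56, 4.83 and 4.93 at 21D. The 21D group overlapped with embryonic kidneys. All neighbours in the order of its group means overlapped except E13.5 and E12.5 kidneys.

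Triml1 is a TRIM family gene of the preimplantation embryo. ESC arrays gave 9.90, 9.51 and 8.96, and mesoderm 6.80, 5.93 and 6.56. The mesoderm mean was 3.03 below that of ESCs, the largest such difference among the 10 genes. Intermediate mesoderm measured 7.35, 6.57 and 7.75 and progenitors 6.90, 5.81 and 4.93. The embryonic kidney arrays lay between 3.68 and 5.07 (median 4.57). Organoids gave 8.11, 7.46 and 6.08 at 8D, 7.12, 6.14 and 5.44 at 14D, and 6.43, 5.12 and 6.14 at 21D, all above the embryonic kidneys.

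The same arrays were low for most of the 10 genes. The third progenitor array held the lowest of the 3 progenitor values for 8 genes, and the third 8D array the lowest 8D value for 9. At 14D the third array was lowest for 8 genes, and at 21D the second array was lowest for 8. The median SD among the 3 arrays over the 10 genes was 0.83 in progenitors, 0.96 in 8D, 0.86 in 14D and 0.71 in 21D organoids, against 0.26, 0.20, 0.18 and 0.19 over all genes. In ESCs it was 0.48 against 0.19, in mesoderm 0.29 against 0.16 and in E12.5 kidneys 0.30 against 0.15.

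A list of 20 pluripotent cell markers (among them Pou5f1, Nanog and Sox2) moved with the 10 genes. In all 4 of these groups the array with the lowest mean of the 10 genes also had the lowest marker mean, and the array with the highest had the highest. The marker mean on the progenitor arrays was 8.15, 7.13 and 5.82, and the mean of the 10 genes was 6.70, 5.93 and 4.84. At 8D the marker mean was 8.998, 9.05 and 7.85 beside 7.35, 7.52 and 6.04 for the 10 genes. The 14D arrays gave 8.35, 7.70 and 7.11 beside 7.02, 6.33 and 5.50, and the 21D arrays 8.08, 6.92 and 7.72 beside 6.64, 5.45 and 6.28. The embryonic kidneys stood at 5.52 to 5.72 for the markers, near the third progenitor array.
The mean of 15 fibroblast and feeder markers was 8.30, 8.86 and 8.91 on the progenitor arrays and 6.84 to 7.02 in intermediate mesoderm, and in ESCs it was 7.15, 7.75 and 7.98. The mean of 15 macrophage markers was 5.01 to 6.87 on the progenitor and organoid arrays, with its highest value on the second 21D array, which was low for the 10 genes. The mean of the 14 measured of 15 gonad and adrenal somatic markers was 4.72 to 5.25 on all 30 arrays. The part that these lists play in the values of the 10 genes was not tested. In RNA from whole cultures, fewer cells that transcribe a gene and less RNA per cell cannot be told apart.

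**Figure D2:**
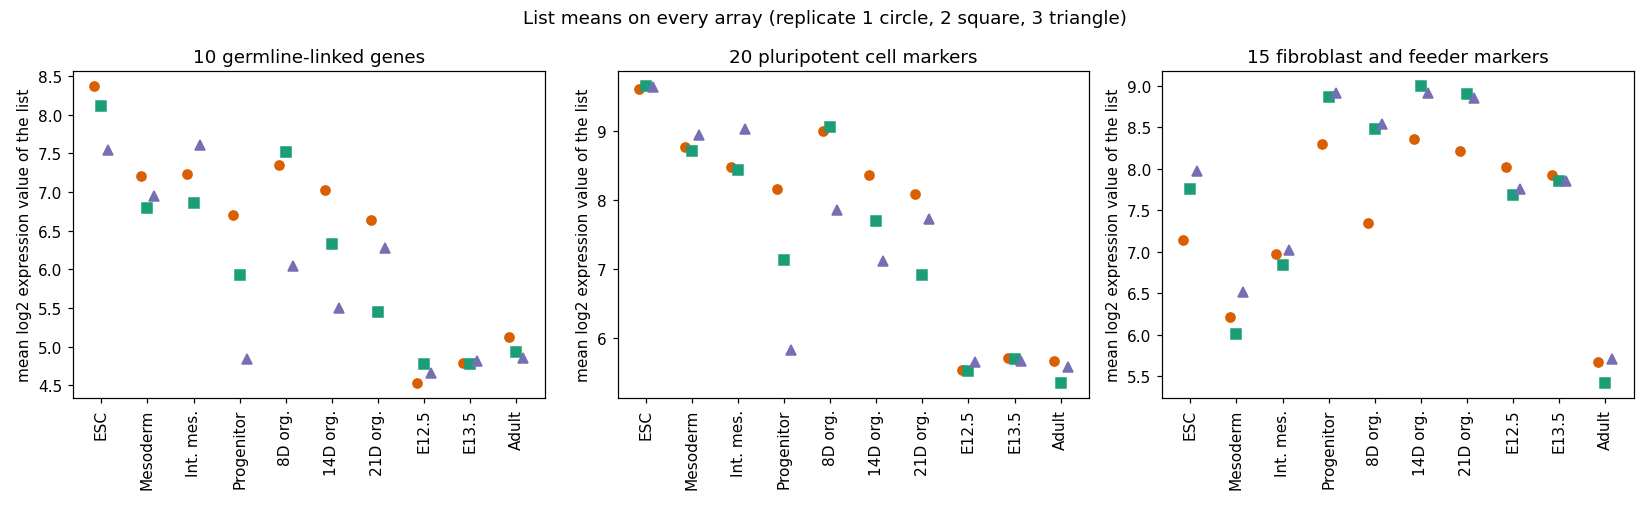
The mean log2 expression value (vertical axis) of the 10 genes, of 20 pluripotent cell markers and of 15 fibroblast and feeder markers on each array, by group (horizontal axis), with replicates 1, 2 and 3 as circles, squares and triangles. The third progenitor array was at 4.84 for the 10 genes and 5.82 for the pluripotent markers, lower than the other progenitor arrays in both.

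The 10 genes were tested in 5 comparisons between groups other than ESCs and organoids, with limma over all genes and Benjamini-Hochberg adjustment, and a gene was called at an adjusted p under 0.05. The fit used all 30 arrays, so the ESC and organoid arrays on which the genes were selected contribute to the SE and the p-values. The ESC arrays also enter the batch term, which shifts the fitted differences where the compared groups differ in batch make-up. For Dppa2, progenitors minus embryonic kidneys was 2.79 from the array means and 2.68 in the fit. In a fit on the compared arrays alone, 0 of the 10 were called between mesoderm and intermediate mesoderm, 3 on to progenitors, 5 between progenitors and embryonic kidneys, 0 between E13.5 and E12.5 kidneys and 2 between adult and embryonic kidneys. The shares of all genes called in that fit are not given, so these counts have no background beside them. Counts and shares below are from the fit on all 30 arrays unless another fit is named. Between mesoderm and intermediate mesoderm none of the 10 was called, against 3.15% of all genes called higher in intermediate mesoderm and 3.90% called lower. The lowest p was that of Dppa3, whose log2 fold change was 0.92 (SE 0.38, adjusted p = 0.165, unadjusted p = 0.0236). Without the first mesoderm array it was 1.40 with an adjusted p of 0.0373, and in batch 2 alone 1.43 with 0.0461. No other gene of the set had an unadjusted p under 0.05 here.

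From intermediate mesoderm to progenitors 7 of the 10 genes fell and none rose, where 15.9% of all genes were called lower and 10.7% higher. The median log2 fold change of the 10 was -1.72, against 0.02 over all genes. Morc1 fell by 2.51 (SE 0.63, adjusted p = 0.00412), Sohlh2 by 2.26 (SE 0.69, adjusted p = 0.0166) and Dppa2 by 2.21 (SE 0.76, adjusted p = 0.0328). The SE pools the spread of all 10 groups, whereas the SD of Dppa2 was 2.305 in progenitors and 0.382 in intermediate mesoderm. Dppa3 fell by 1.99 (SE 0.38, adjusted p = 0.000368), Dppa4 by 1.87 (SE 0.51, adjusted p = 0.00773), Dazl by 1.56 (SE 0.57, adjusted p = 0.0445) and Triml1 by 1.34 (SE 0.48, adjusted p = 0.0384). The progenitor means of Dppa3 (4.67), Morc1 (5.17) and Dazl (5.38) were not clearly above background, so the sizes of their falls may be understated.
Dppa5a, Tex19.1 and Sycp3 were not called, with log2 fold changes of -0.04, -0.29 and -0.04. Every progenitor array was below every intermediate mesoderm array for Dppa2, Dppa3, Dppa4, Sohlh2, Morc1 and Dazl, while the groups overlapped for Triml1. The share of all genes separated in this way is not given, so this is a description only.

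The calls of this step depended on single arrays. Without the third progenitor array 2 of the 10 genes were called, Dppa3 and Morc1, and the fall of Dppa2 was 0.94 (adjusted p = 0.303). Without the third intermediate mesoderm array, the one with the highest values, 2 were also called. Batch 2 alone gave 6 calls, and the fit on the 6 compared arrays alone gave 3, Dppa3, Morc1 and Dazl. Of the pluripotent markers, 15 of 20 fell in the same comparison and none rose, with a median of -1.75, and of the fibroblast and feeder markers 10 of 15 rose and none fell, with a median of 1.57. Whether the fall of the 10 genes is separate from that of the pluripotent markers was not tested.

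Compared with embryonic kidneys (the mean of E12.5 and E13.5, 6 arrays), 4 of the 10 genes were higher in progenitors and none lower, where 14.2% of all genes were called higher and 20% lower. The kidney levels of these 4 genes were not clearly above background, and neither was the progenitor mean of Tex19.1 (5.29). Dppa2 was higher by 2.68 (SE 0.66, adjusted p = 0.00261), Sohlh2 by 1.81 (SE 0.60, adjusted p = 0.0218), Triml1 by 1.37 (SE 0.41, adjusted p = 0.0125) and Tex19.1 by 0.54 (SE 0.21, adjusted p = 0.0495). Dazl (1.15, adjusted p = 0.0784), Dppa4 (1.08, adjusted p = 0.0631), Morc1 (0.68, adjusted p = 0.366), Dppa5a (0.37, adjusted p = 0.0758), Dppa3 (0.36, adjusted p = 0.438) and Sycp3 (0.23, adjusted p = 0.557) did not pass.
Dazl, Sohlh2 and Tex19.1 were above all embryonic kidney arrays on every progenitor array, as were 10.9% of all genes. In batch 2 alone none of the 10 genes was called, and the difference was 2.06 for Dppa2 (adjusted p = 0.0644), 1.20 for Sohlh2 and 0.89 for Triml1. Leaving out the first or the second progenitor array left 1 call each, and leaving out the first E13.5 array left 2. Of the pluripotent markers, 12 of 20 were higher in progenitors and 2 lower.

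**Figure D3:**
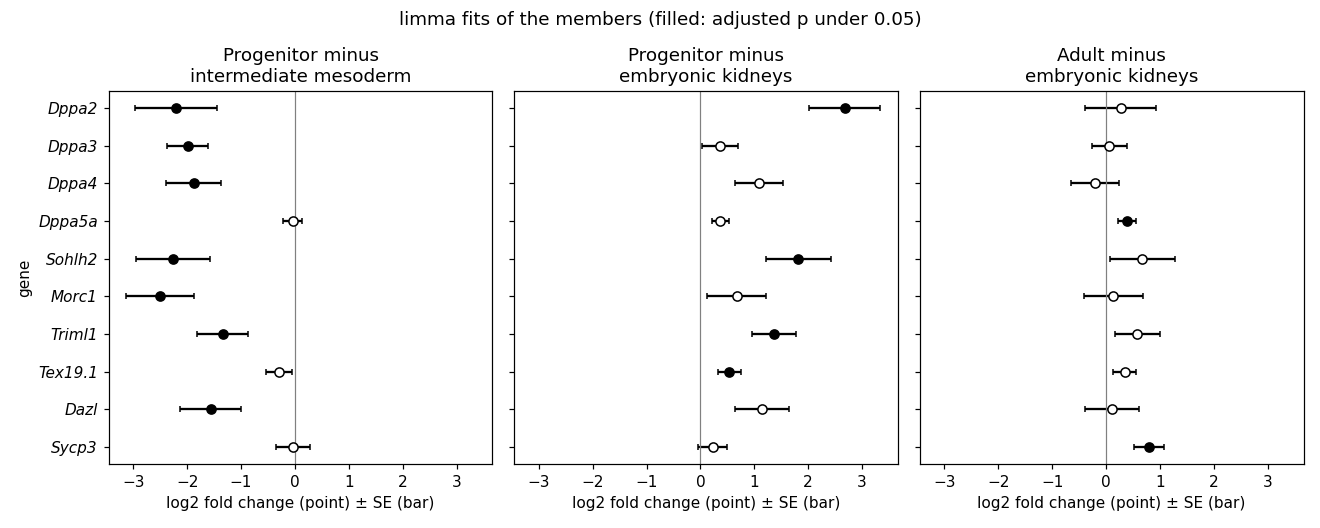
The log2 fold change (horizontal axis, points) with its SE (bars) of each of the 10 genes (vertical axis) in 3 limma comparisons, with filled points where the adjusted p was under 0.05. In progenitors 7 genes were lower than in intermediate mesoderm, and 4 were higher than in embryonic kidneys.

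In the kidneys themselves few of the 10 genes were called. The embryonic kidney means of all but Sycp3 were not clearly above background, so a fall could hardly show there. Between E13.5 and E12.5 kidneys none of the 10 was called, and 0% of all genes were called in either direction (465 of 23986 had an unadjusted p under 0.05, none of them in the set). Between adult and embryonic kidneys 2 of the 10 were higher and none lower, where 24.3% of all genes were called higher and 25.4% lower, so the share of the set was no larger than the background. Sycp3 was higher in adult kidneys by 0.80 (SE 0.27, adjusted p = 0.0177) and Dppa5a by 0.39 (SE 0.16, adjusted p = 0.0441). The Dppa5a arrays lay at 4.65 to 4.85 in adult and 4.14 to 4.82 in embryonic kidneys. All were below the lowest background percentile of 4.997, so this difference lies within background.
Sycp3 lost its call without the second (adjusted p = 0.0666) or the third adult array (adjusted p = 0.0517). Dppa5a lost it without any 1 of 6 arrays, replicates 1 and 3 of E12.5 and of E13.5 and replicates 1 and 2 of adult kidneys, with adjusted p from 0.0788 to 0.125. Sohlh2 (0.67, adjusted p = 0.377) and Tex19.1 (0.34, adjusted p = 0.182) were not called, although Tex19.1 was called without the third adult array (0.57, adjusted p = 0.041).

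The position of the genes on the chromosomes was compared with their group means. Dppa4 and Dppa2 are direct neighbours on chromosome 16, and Morc1 follows with only the noncoding RNA gene Gm5485 between them among the genes on the array. Over the 10 group means, Dppa2 and Dppa4 correlated with r = 0.97 and Dppa4 and Morc1 with r = 0.97, while Gm5485 stayed between 3.86 and 4.42 and correlated with r = -0.04 with Dppa2. The outer neighbours Nectin3 (r = -0.61 with Dppa4), a cell adhesion gene, and Trat1 (r = -0.49 with Morc1), a T cell adaptor gene, correlated negatively, and their group means spanned only 7.57 to 8.58 and 3.57 to 4.06.
Dppa3 lies on chromosome 6 between Gdf3, a TGF-beta family ligand (r = 0.91), and the pluripotency transcription factor gene Nanog (r = 0.89). The mean of Dppa3 was higher in intermediate mesoderm than in mesoderm (6.67 against 5.75), whereas that of Gdf3 was lower (7.81 against 8.41) and that of Nanog was 11.06 against 11.13. Nanog measured 9.89, 8.48 and 5.21 in progenitors and 4.35 to 4.87 in embryonic kidneys. Triml1 lies beside Triml2 on chromosome 8, with r = 0.98, and Triml2 gave 9.74, 9.06 and 8.58 in ESCs and 6.85, 6.36 and 4.47 in progenitors. Its other neighbour, the pseudogene Zfp353-ps, correlated with r = -0.49.
Dppa5a on chromosome 9 lies beside Ooep, an oocyte maternal complex gene, with r = 0.82. Ooep ranged from a mean of 9.47 in ESCs to 6.06 in adult kidneys, a span that Dppa5a did not show, and Gsta2 on the other side stayed between 2.39 and 2.75. The neighbours of the other 4 genes did not follow them. Sohlh2 correlated with r = -0.25 with Ccdc169 and -0.13 with Dclk1, Dazl with 0.18 with AY702103 and -0.55 with Plcl2, Tex19.1 with 0.20 with its paralog Tex19.2 and -0.03 with Uts2r, and Sycp3 with 0.05 with Gnptab and 0.01 with Chpt1. Gm5485, Trat1, Zfp353-ps, Gsta2, Ccdc169, AY702103 and Tex19.2 had no group mean above the lowest background percentile of 4.997. Such genes could hardly follow a neighbour on these arrays. The correlations describe 10 group means of the same 30 arrays and carry no test. These means include the ESC and organoid levels on which the 10 genes were selected. Genes of the set on different chromosomes were similarly alike, with r = 0.98 for Dazl and Sohlh2 and 0.95 for Triml1 and Morc1. The correlations within the set are therefore not a result about position.

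**Figure D4:**
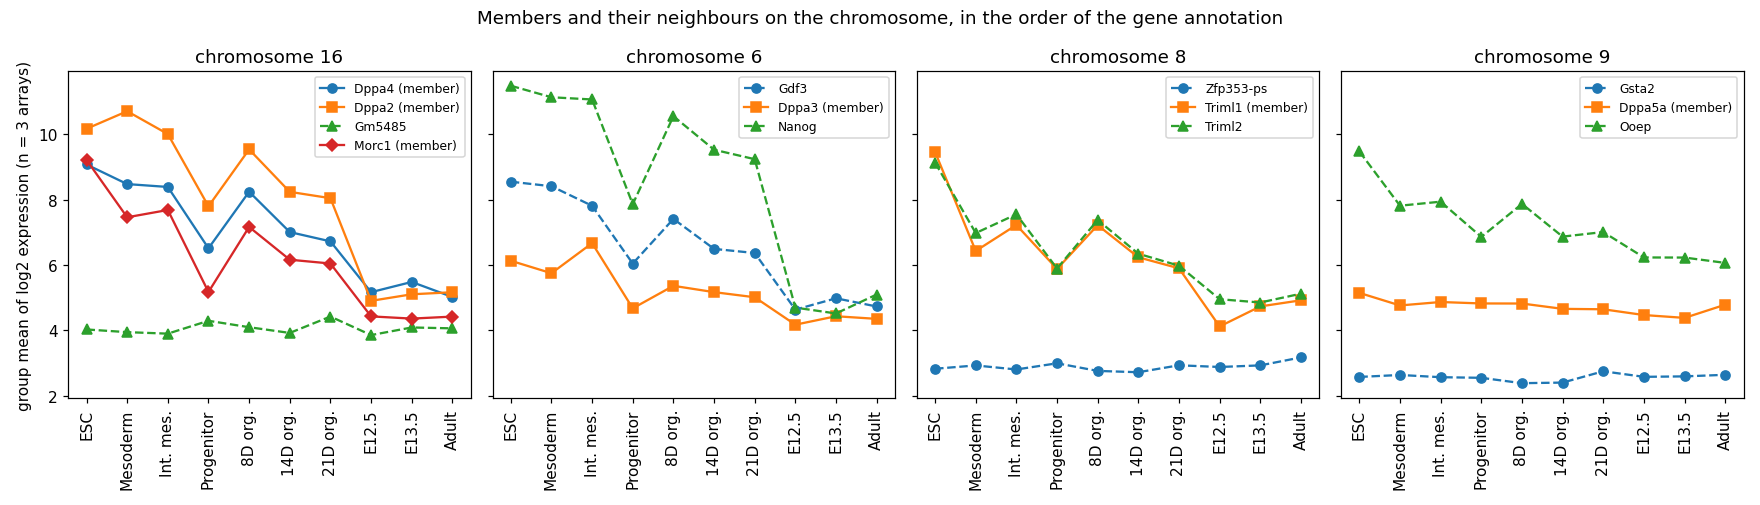
The group mean of the log2 expression value (vertical axis, n = 3 arrays) of Dppa4, Dppa2, Morc1, Dppa3, Triml1 and Dppa5a (solid lines) and of the genes beside them (dashed lines) in 4 chromosome regions, by group (horizontal axis). Gdf3, Nanog and Triml2, like Dppa3 and Triml1 beside them, had lower means in progenitors than in intermediate mesoderm or 8D organoids. Gm5485, Zfp353-ps and Gsta2 stayed level at background values.

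Among all other named genes, those most like the mean profile of the 10 were Lncenc1, Tdh, Platr20, AU018091, Zfp951, Zfp936, Fbxo15, Slc39a4, Zfp42 and Trap1a, with r from 0.98 to 0.99 over the 10 group means. Tdh, the threonine dehydrogenase of mouse ESCs, averaged 10.79 in ESCs, 7.08 in progenitors, 9.33 at 8D and 5.38 in E12.5 kidneys. Zfp42 (Rex1), a zinc finger marker of naive pluripotency, averaged 10.74, 7.52, 9.49 and 5.01 in the same groups. Within the set, the genes least like its mean were Sycp3 (r = 0.62) and Dppa5a (r = 0.81), and the other 8 had r from 0.92 to 0.99.

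Other germline genes were followed in 4 lists that hold none of the 10, namely germ cell specification and identity (20 genes), meiosis (24), piRNA and transposon defence (20) and oocyte and early embryo (20). All 84 genes were measured. From ESCs to mesoderm 16 of the 84 fell and 3 rose, where 5.80% of all genes were called lower and 5.86% higher. The falls were led by Tcl1, an AKT cofactor of oocytes and ESCs (-3.23, adjusted p = 0.000101), the meiotic cohesin gene Smc1b (-2.42, adjusted p = 2.75e-05), Meiob, which binds single-stranded DNA in meiosis (-2.34, adjusted p = 5.4e-05), and Triml2 (-2.15, adjusted p = 0.00943). Stag3, another meiotic cohesin gene, fell by 1.91 (adjusted p = 1.69e-05), while the cohesin genes Rec8 (0.39, adjusted p = 0.505) and Rad21l (0.72, adjusted p = 0.0605) were not called. Tdrd5, a Tudor domain gene of the piRNA pathway, rose by 1.27 (adjusted p = 0.000962).
In batch 2 alone 9 of the 84 were called in this step. Leaving out the first ESC array gave 11 calls, and leaving out the first mesoderm array gave 10. The fibroblast and feeder markers fell in 9 of 15 and the macrophage markers in 6 of 15 in the same comparison, and their part was not tested.

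From mesoderm to intermediate mesoderm 5 of the 84 rose and 5 fell, where 3.15% of all genes were called higher and 3.90% lower. Stra8, which retinoic acid induces at entry into meiosis, rose by 1.89 (SE 0.45, adjusted p = 0.0116), from 4.17, 4.52 and 4.31 on the mesoderm arrays to 6.51, 5.87 and 6.29 on the intermediate mesoderm arrays, which did not overlap. Zbtb16, a spermatogonial zinc finger gene, rose by 1.55 (adjusted p = 0.00136) and the germ cell factor gene Prdm14 by 1.09 (adjusted p = 0.0412). Dnmt3l, the cofactor of de novo DNA methylation in germ cells, fell by 1.60 (adjusted p = 0.0105). None of the 20 oocyte genes was called. The count of 10 fell to between 3 and 7 when any 1 array was left out, and to 2 in batch 2 alone.

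From intermediate mesoderm to progenitors 19 of the 84 fell and 5 rose, where 15.9% of all genes were called lower and 10.7% higher. By list, 10 fell and 3 rose in germ cell specification, 5 and 1 in meiosis, 3 and none in transposon defence, and 1 and 1 among the oocyte genes. Rec8, the meiotic cohesin kleisin, fell by 2.56 (SE 0.30, adjusted p = 1.21e-06). The primordial germ cell factor genes Tfap2c and Prdm1 fell by 2.47 (adjusted p = 1.06e-05) and 2.04 (adjusted p = 1.25e-07), Tdrd5 by 2.01 (adjusted p = 1.35e-06), and Stra8 by 1.42 (adjusted p = 0.0221). Gdf9, an oocyte growth factor gene, rose by 0.57 (adjusted p = 0.0211). Without the third intermediate mesoderm array 11 of the 84 were called.

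From progenitors to 8D organoids 16 of the 84 rose and 3 fell, where 11.7% of all genes were called higher and 7.69% lower. Tcl1 rose by 1.89 (adjusted p = 0.00901), Triml2 by 1.68 (adjusted p = 0.0333), Tfap2c by 1.62 (adjusted p = 0.002), Rec8 by 1.33 (adjusted p = 0.00327) and Tdrd12, a piRNA pathway gene, by 1.19 (adjusted p = 0.0127). Lhx8, an oocyte homeobox gene, fell by 1.62 (adjusted p = 0.0113). Leaving out the first or the second 8D array gave 11 calls each. The pluripotent markers rose in 15 of 20 in the same comparison.
From 8D to 21D organoids 10 of the 84 fell and 2 rose, against 5.54% and 5.95% of all genes. Tdrd5 fell by 1.15 (adjusted p = 0.00267), while Id4 (1.43, adjusted p = 0.0283) and Gfra1 (1.26, adjusted p = 0.0158), which spermatogonial stem cells share with other tissues, rose. In the same comparison 6 of 15 macrophage markers rose, among them C1qb (2.04, adjusted p = 0.0112) and Lyz2 (1.78, adjusted p = 0.0108), and 3 of 20 pluripotent markers fell, Lin28a, Sall4 and Pou5f1, and their part was not tested. The count was 3 without the first 8D array, 7 without the second, 4 without the second 21D array and 22 without the third 8D array.

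Against ESCs, 38 of the 84 were lower and 3 higher in progenitors (19.6% and 14.8% of all genes). In 8D organoids 10 were lower and 1 higher (4.33% and 3.59%), and in 21D organoids 42 were lower and 4 higher (17.0% and 14.1%). These 3 comparisons share the ESC arrays. The 8D count was 4 without the third 8D array, 5 without the second ESC array and 18 without the third.

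Against embryonic kidneys, 12 of the 84 were higher and 3 lower in progenitors, where 14.2% of all genes were called higher and 20% lower, so the share called higher was near the background. Ifitm3, a membrane protein gene of migrating germ cells and of many somatic cells, was higher by 3.13 (SE 0.25, adjusted p = 1.69e-09), Zscan4c, a gene of the early embryo and of rare ESCs, by 1.57 (adjusted p = 0.0111) and Smc1b by 1.02 (adjusted p = 0.00601). Gfra1, also a receptor of the ureteric bud, was lower by 1.67 (adjusted p = 8.73e-05). In batch 2 alone 8 of the 84 were called.
Adult kidneys had 10 of the 84 higher and 11 lower than embryonic kidneys, where 24.3% of all genes were called higher and 25.4% lower, so both shares were below the background. Tdrd7, which acts in germ granules and the lens, was higher by 1.31 (adjusted p = 1.16e-09), and Syce2, a central element protein gene of the synaptonemal complex, was lower by 1.86 (adjusted p = 2.11e-09). No gene of the 84 was called between E13.5 and E12.5 kidneys.

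**Figure D5:**
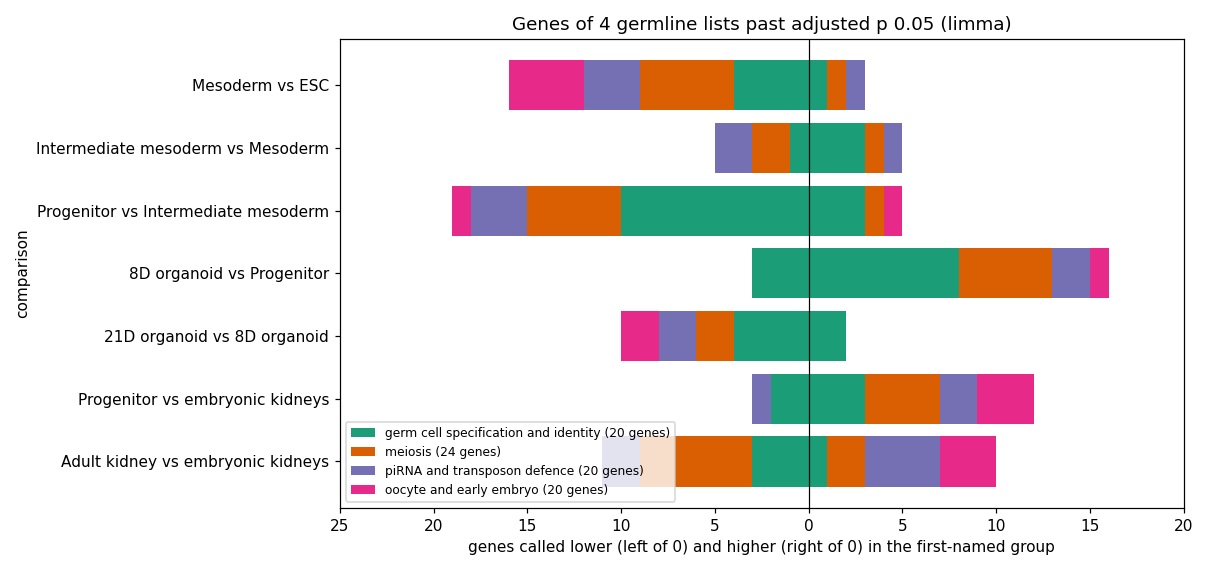
The number of genes of 4 germline lists called lower (left of 0) and higher (right of 0) in the first-named group of 7 comparisons (vertical axis), at an adjusted p under 0.05. From intermediate mesoderm to progenitors 19 genes were called lower and 5 higher, and from progenitors to 8D organoids 16 were called higher and 3 lower.

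Genes that repress germline promoters were followed as a list of 22, among them the DNA methyltransferases, Uhrf1, and the Polycomb subunits Mga, Max, E2f6, L3mbtl2 and Pcgf6. From ESCs to mesoderm 5 rose and none fell, where 5.86% of all genes were called higher and 5.80% lower. The rises were led by the de novo methyltransferase genes Dnmt3b (2.02, adjusted p = 0.0128) and Dnmt3a (1.18, adjusted p = 0.000237). From mesoderm to intermediate mesoderm 5 fell and none rose, where 3.90% of all genes were called lower and 3.15% higher. Dnmt3b was lower by 2.12 (adjusted p = 0.0148) and Uhrf1 by 0.97 (adjusted p = 0.00163). From intermediate mesoderm to progenitors 13 of the 22 fell and none rose, with a median of -0.43. Of all genes 15.9% were called lower and 10.7% higher in this step. Dnmt3b fell by 1.91 (adjusted p = 0.00874), Pcgf6 by 1.48 (adjusted p = 3.21e-07), the maintenance methyltransferase gene Dnmt1 by 1.16 (adjusted p = 5.39e-07) and its partner Uhrf1 by 1.13 (adjusted p = 5.17e-05).
From progenitors to 8D organoids 12 rose and none fell, and against embryonic kidneys progenitors had 15 lower and none higher. In the germline lists most called genes moved the same way as these genes from intermediate mesoderm to progenitors and on to 8D organoids. The same held from 8D to the oldest organoids and for progenitors against ESCs. Most moved the opposite way from ESCs to mesoderm and for 8D organoids against ESCs. Against embryonic kidneys more germline genes were called higher than lower in progenitors, but the share called higher was near the background. The germline calls were split from mesoderm to intermediate mesoderm and between adult and embryonic kidneys. The relation between the lists was not tested. Adult kidneys had 19 of the 22 lower than embryonic kidneys and none higher, where 25.4% of all genes were called lower and 24.3% higher. Uhrf1 was lower by 4.18 (adjusted p = 4.27e-17).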

How the data were processed

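The arrays were Affymetrix Mouse Gene 2.0 ST, 30 in all. The authors read the raw arrays in R with oligo and limma, and the submitters' processing notes name RMA. The deposited table holds log2 values for 23986 gene symbols, 1 row per symbol. Not given in the sources used here are software versions, how probe sets were assigned and combined per gene, and whether batches had been corrected. The labels name the RNeasy Plus kit and the methods the RNeasy Mini kit.

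Groups, replicate numbers and batches were taken from the labels. limma 3.58.1 (R 4.3.3) was fitted to all 30 arrays with a term for each of 10 groups and for batch (19 residual degrees of freedom), and p-values were adjusted within each comparison over its 23986 genes (Benjamini-Hochberg). For embryonic kidneys the E12.5 and E13.5 terms were averaged. The fit was first tested on simulated data of the same design. Arrays give no read depth, and 3 arrays per group limit the precision. The 10 genes and all lists were chosen with earlier results of these data known. Comparisons that include ESCs or organoids were run for the 84 other germline genes only. Alternatives were no batch term, batch 2 alone, the compared arrays alone, the replicate number as a block, a filter on dim genes (mean log2 value of 5.83 or more, passed by 12220 genes and by 6 of the 10), quantile normalisation, a trended and robust prior, array weights and leaving out each array.

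Named genes beyond the 10 are the nearest neighbours on the array in the order of RefSeq (GRCm38.p6), up to 4 called genes of largest change per list and comparison, and the 10 genes most like the mean profile, leaving out predicted and small RNA genes and the olfactory and vomeronasal receptors.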

Additional observations from a re-analysis of the deposited data

Results flagged for a closer look

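Among the 10 genes over the 6 embryonic kidney arrays, 1 value stood far from the others. Sycp3 measured 5.65 on the first E13.5 array, the lowest of the 6, and its gap to the next array was 0.674 of the whole range, above the critical value of Dixon's test at the 95% level. Chance gives such a gap in about 1 in 20 groups. That array is the only embryonic kidney array of batch 1.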

How the results depend on the processing

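Of the 10 genes, the number called between mesoderm and intermediate mesoderm was 0, and 1 in batch 2 alone. Between intermediate mesoderm and progenitors it was 7, and 4 with quantile normalisation, 4 with array weights and 3 with the compared arrays alone. Between progenitors and embryonic kidneys it was 4, and 0 in batch 2 alone. Between adult and embryonic kidneys it was 2, and 1 without a batch term, 1 with quantile normalisation and 1 with the filter on dim genes, which Dppa5a does not pass. Leaving out single arrays gave 0 to 1, 2 to 6, 1 to 6 and 0 to 2 calls in the same order. E13.5 against E12.5 kidneys gave 0 under every alternative.

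Some small differences changed sign. Sycp3 between progenitors and intermediate mesoderm was 0.017 with quantile normalisation and -0.33 to 0.16 over single arrays left out, and Dppa5a was -0.35 to 0.15. Against embryonic kidneys in batch 2 alone, Morc1 was -0.12 and Sycp3 -0.13, and over single arrays left out they were -0.065 to 1.35 and -0.038 to 0.43. The cause was not tested. Removing the batch term from the values moved the mean of the 10 genes to 4.88 in E12.5, 4.87 in E13.5 and 5.19 in adult kidneys, by more than the SD of their arrays.

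For the 84 other germline genes, the filter on dim genes, which tests fewer of them, gave 4 calls from mesoderm to intermediate mesoderm (10 without it), 11 on to progenitors (24), 6 for progenitors against embryonic kidneys (15), 9 for adult kidneys (21), 7 for mesoderm against ESCs (19), 15 for progenitors against ESCs (41), 19 for 21D against ESCs (46) and 11 for 8D against progenitors (19). Batch 2 alone, which has fewer arrays, gave 2 from mesoderm to intermediate mesoderm, 8 for progenitors against embryonic kidneys and 9 for mesoderm against ESCs. The compared arrays alone gave 16 from mesoderm to intermediate mesoderm, 12 on to progenitors, 1 for 8D against ESCs (11 with all arrays), 3 for 8D against progenitors and 3 for 21D against 8D (12). Array weights gave 20 from mesoderm to intermediate mesoderm, and omitting the batch term gave 20 for 8D against ESCs.
Leaving out single arrays gave 3 to 7 calls from mesoderm to intermediate mesoderm, 11 to 22 on to progenitors, 10 to 19 for mesoderm against ESCs, 4 to 18 for 8D against ESCs, 11 to 27 for 8D against progenitors and 3 to 22 for 21D against 8D.

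Same-numbered arrays deviated together in 1 of 45 pairs of groups (correlations of -0.32 to 0.524 over all pairs), so the numbers were not taken to pair samples. With the replicate block, 17 of the 84 genes were called for 8D organoids against ESCs in place of 11, and 7, 6 and 2 of the 10 genes were called in progenitors against intermediate mesoderm, progenitors against embryonic kidneys and adult against embryonic kidneys.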
